A study of Mus musculus with 15 samples.

Results

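The 8 genes described here encode the cyclins that drive G1 and mitosis: Ccnd1, Ccnd2, Ccnd3, Ccne1, Ccne2, Ccna2, Ccnb1 and Ccnb2. They were taken by name from 21045 protein-coding genes with an annotated 3′UTR, of which 4877 held a 3′UTR crosslink site in at least 1 list. A crosslink site is the nucleotide at which a protein was joined to RNA by UV light in individual-nucleotide resolution crosslinking and immunoprecipitation (iCLIP), and its value is the number of unique cDNAs that ended there. Only sites on the sense strand of these genes were counted, in the mouse assembly mm10 with GENCODE M21 gene models.

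The protein was tristetraprolin (TTP), a zinc-finger protein that binds AU-rich elements in mRNA. All cells were C57BL/6 bone marrow-derived macrophages that lack endogenous TTP and had been immortalised with human c-myc and an oncogenic form of human Ras. They carried a doxycycline-inducible construct for either GFP–TTP or GFP–TTP-AA, a mutant with alanine in place of the serines that MK2 targets, and every culture received doxycycline for 6 h. Lipopolysaccharide (LPS) was absent (0 h) or was given for 1 h or 4 h before crosslinking. The GFP–TTP lists summed 2, 4 and 2 libraries at 0 h, 1 h and 4 h and the GFP–TTP-AA lists summed 2, 3 and 2, which makes 15 libraries in 6 lists. GFP-only libraries were not analysed here. Cyclin mRNA levels were not measured in these files, so more mRNA and more binding per mRNA cannot be told apart.

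The lists held between 19167 and 174397 cDNAs, and their 3′UTR cDNAs numbered 4369, 9558 and 906 for TTP over the times 0 h, 1 h and 4 h and 6008, 93510 and 1000 for TTP-AA. Of 7 macrophage markers, 7 had 3′UTR sites in the TTP-AA 1 h list (405 cDNAs in sum) and 3 had them in the TTP 1 h list (74 cDNAs), while 0 of 3 T cell, 0 of 3 B cell and 0 of 3 fibroblast markers had a site in either list. Lyz2 alone held 68 of the 74 TTP cDNAs. Crosslinks are not mRNA levels, so a marker without sites says nothing of its absence. Because replicates had been summed, no value has a replicate error. All tests and intervals compare pooled lists, cover counting error only, and treat cDNAs as independent.

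Cyclins are the regulatory subunits that switch on cyclin-dependent kinases. The D-type cyclins pair with Cdk4 and Cdk6 in G1, couple growth signals to phosphorylation of the retinoblastoma protein, and are followed by the E-type cyclins with Cdk2 at entry into S phase. Cyclin A2 acts in S and G2 phase, and the B-type cyclins drive mitosis with Cdk1. Several cyclin mRNAs are short-lived, and some of their 3′UTRs carry AU-rich elements, whose core is the pentamer AUUUA.

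The stretches that carried most crosslinks are printed first. Some of them rest on few cDNAs, and crosslinks in GFP-only cells were not compared. Each stretch is 29 nt of the mRNA strand, 5′ to 3′, with every complete AUUUA in capitals. Sequences come from the GENCODE M21 transcripts and positions are mm10. The first group holds the stretch with most TTP-AA cDNAs at 1 h in each of the 7 cyclins that had any.
Ccnd1, chr7:144931326-144931354, minus strand: uaAUUUAuacuuaaggcuacagaagagua
Ccnd2, chr6:127128619-127128647, minus strand: cuuuuguucuguuuauuauuauuauuuuu
Ccnd3, chr17:47599386-47599414, plus strand: gccuguaccccacaaguggugguaacccu
Ccne2, chr4:11204118-11204146, plus strand: cuagaaAUUUAUUUAUUUAaacuugcugu
Ccna2, chr3:36565695-36565723, minus strand: aguaguuuauggagacauuuuAUUUAuca
Ccnb1, chr13:100779259-100779287, minus strand: cagaucugaaaccaaguaucuuuuuuuau
Ccnb2, chr9:70407866-70407894, minus strand: cucagauccuguauguauuuuauucuagu

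These stretches held 22 of 71 TTP-AA cDNAs in Ccnd1, 18 of 45 in Ccnd2, 4 of 4 in Ccnd3, 11 of 21 in Ccne2, 6 of 25 in Ccna2, 13 of 28 in Ccnb1 and 7 of 13 in Ccnb2. Ccnd1, Ccne2 and Ccna2 had a complete pentamer within the stretch, and in Ccne2 the pentamer was repeated with overlaps. In Ccnb1 the pentamer lay just downstream, in the nonamer UUAUUUAUU that starts 424 nt after the stop codon, shown here with its surroundings.
Ccnb1 nonamer, chr13:100779236-100779264, minus strand: uuuuauguaauuAUUUAuuuguucuuaau

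The second group holds the stretches with TTP cDNAs at 1 h, which occurred in the D-type cyclins only among the 8 genes.
Ccnd1, chr7:144931809-144931837, minus strand: guaaccuuccuauuuuguagcucuguuua
Ccnd1, chr7:144931162-144931190, minus strand: gggggggggggguccuuaaaaaaaaaaaa
Ccnd2, chr6:127128970-127128998, minus strand: ucccuuuuccguuuuuuguuuguuuguuu
Ccnd3, chr17:47599053-47599081, plus strand: aauccacacaccagcauuucuuuugaguc
Ccnd3, chr17:47599236-47599264, plus strand: uuagagggaacagccuaggcuuuggccag

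These TTP stretches held 4, 4, 3, 2 and 2 cDNAs in the order printed, and none contained AUUUA. The Ccnd1 and Ccnd2 stretches included runs of U, of G or of A.

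All but 2 sense-strand cDNAs of the cyclins lay in 3′UTRs. Summed over the 8 genes, the 3′UTRs held 7, 15 and 0 TTP cDNAs and 7, 207 and 0 TTP-AA cDNAs at 0 h, 1 h and 4 h. The sum was thus highest in the TTP-AA 1 h list and was 0 in both 4 h lists. Outside the 3′UTRs there were 2 cDNAs, in the 5′UTR of Ccnd2 in the TTP-AA 1 h list, and 0 cDNAs in coding sequence, non-coding exons or introns in any list. Over all mRNAs, 3′UTRs took 95.3% of the TTP-AA and 79.1% of the TTP mRNA cDNAs at 1 h. At 1 h, 7 of 8 cyclins had a 3′UTR site for TTP-AA and 3 of 8 for TTP. Of all 21045 genes with a 3′UTR, 4510 had one for TTP-AA and 1306 for TTP, so more genes with TTP-AA sites is general.

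**Figure D1:**
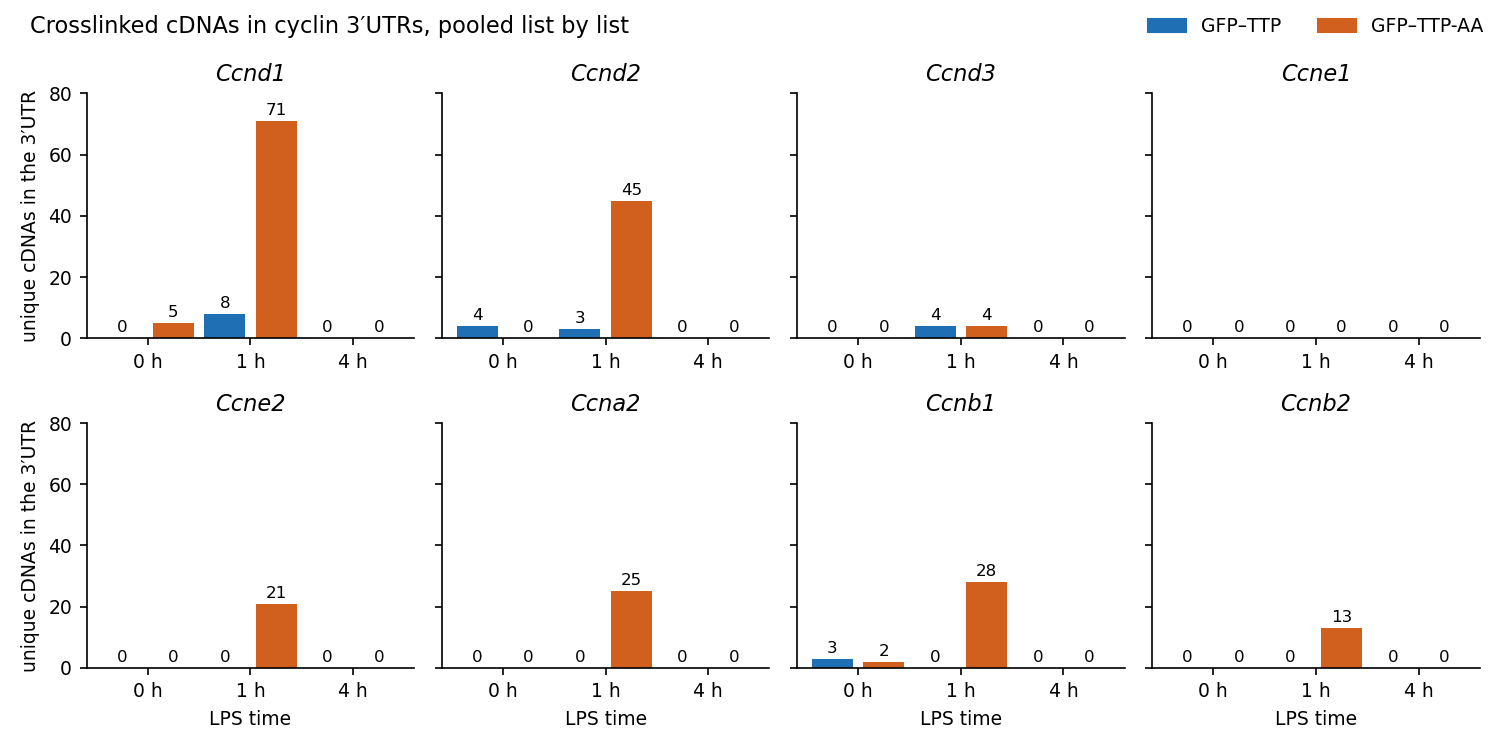
Unique cDNAs (y axis) in the 3′UTR of each cyclin gene for GFP–TTP (blue) and GFP–TTP-AA (orange) at 0 h, 1 h and 4 h of LPS (x axis), 1 bar per pooled list with its count above it. The TTP-AA 1 h bar is the highest in 6 of the 8 genes, equals the TTP bar at 4 cDNAs in Ccnd3, and is 0 in Ccne1.

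The D-type cyclins held 120 of the 207 TTP-AA cDNAs at 1 h (58.0%) and 15 of 15 TTP cDNAs. Their 3′UTRs, of 2676, 5491 and 915 nt, also make up most of the 13.9 kb of the 8 genes. Ccnd1, which encodes cyclin D1, had 0, 8 and 0 TTP cDNAs and 5, 71 and 0 TTP-AA cDNAs at 0 h, 1 h and 4 h, spread over 50 sites in the TTP-AA 1 h list. Its TTP-AA count at 1 h was higher than that of 95.5% of the 4510 genes with a site in that list, where the median was 8 cDNAs. Per kb of 3′UTR, Ccnd1 was above 83.9% of these genes. Ccnd2, encoding cyclin D2, had 4, 3 and 0 TTP cDNAs and 0, 45 and 0 TTP-AA cDNAs. Ccnd3, encoding cyclin D3, had 0, 4 and 0 TTP cDNAs and 0, 4 and 0 TTP-AA cDNAs. Among the 7 cyclins with cDNAs at 1 h, Ccnd3 was thus the only one in which the TTP count was as high as the TTP-AA count.

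The E-type cyclins had unlike counts at 1 h. Ccne2 had 21 TTP-AA cDNAs at 19 sites in the 1 h list and 0 cDNAs in the other 5 lists. Ccne1 had 0 cDNAs in all 6 lists. A count of 0 allows up to 3 cDNAs, or 5.65 per kb of its 531-nt 3′UTR. Cyclin A2 and the B-type cyclins resembled Ccne2 in lacking TTP sites at 1 h. Ccna2 had 25 TTP-AA cDNAs at 23 sites at 1 h and 0 elsewhere. Ccnb1, encoding cyclin B1, had 28 TTP-AA cDNAs at 21 sites at 1 h, 2 at 0 h, and 3 TTP cDNAs at 0 h. Ccnb2, encoding cyclin B2, had 13 TTP-AA cDNAs at 8 sites at 1 h and 0 elsewhere.

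Per length, the order of the genes changed. The 3′UTRs ranged from 227 nt in Ccnb2 to 5491 nt in Ccnd2, counting every annotated 3′UTR base of the gene. In the TTP-AA 1 h list, Ccnb2 had 57.3 cDNAs per kb of 3′UTR (95% Poisson interval 30.5 to 97.9). Ccnb1 followed at 27.2 (18.1 to 39.4), Ccnd1 at 26.5 (20.7 to 33.5), Ccna2 at 18.3 (11.8 to 27.0), Ccne2 at 12.5 (7.73 to 19.1), Ccnd2 at 8.20 (5.98 to 11.0) and Ccnd3 at 4.37 (1.19 to 11.2). The intervals of all neighbours in this order overlapped. The interval of Ccnb2 did not overlap those of Ccna2, Ccne2, Ccnd2 and Ccnd3. The interval of Ccnd1 did not overlap those of Ccne2, Ccnd2 and Ccnd3, and those of Ccnb1 and Ccna2 did not overlap those of Ccnd2 and Ccnd3. The median gene with a site had 5.81 cDNAs per kb, which Ccnd2 exceeded narrowly and Ccnd3 did not reach. These values were not adjusted for mRNA level.

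**Figure D2:**
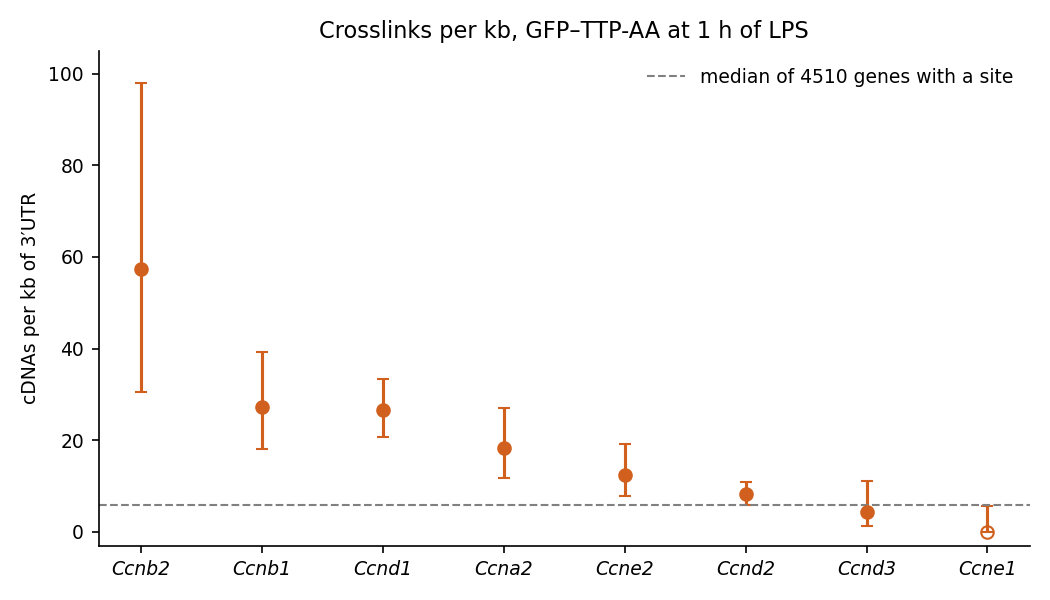
TTP-AA cDNAs per kb of 3′UTR at 1 h of LPS (y axis) for the 8 cyclins in descending order (x axis), with 95% Poisson intervals, and for Ccne1, at 0, the limit that a count of 0 allows. The dashed line is the median of the 4510 genes with a 3′UTR site in that list, 5.81 cDNAs per kb; Ccnb2 stands highest at 57.3.

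The first comparison asked whether the mutant was crosslinked to cyclin mRNAs more than the wild type at 1 h of LPS. The sum over the cyclins was 13.8 times higher for TTP-AA than for TTP (207 against 15 cDNAs; exact 95% interval 8.17 to 25.1). Over all genes, 3′UTR cDNAs were 9.78 times and total cDNAs 1.76 times more frequent in the TTP-AA list, so the cyclin interval included the general 3′UTR ratio. Leaving out Ccnd1 gave 19.4 (9.18 to 49.2).

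Genes that reached 10 cDNAs in the sum of both lists were compared by a two-sided Fisher's exact test with Benjamini-Hochberg adjustment over all 2102 of them. Against the 3′UTR cDNAs of each list, 0 of the 6 cyclins tested passed an adjusted p of 0.05, and 0 of 6 had an unadjusted p below 0.05. Of all genes tested, 6.23% passed (131 genes, 41 with a higher share in TTP-AA and 90 with a lower share). Ccnd1 took 0.0759% of TTP-AA and 0.0837% of TTP 3′UTR cDNAs, an odds ratio of 0.907 (95% interval 0.436 to 2.18, exact test adjusted p = 0.776). Ccnd2 took 0.0481% and 0.0314%, an odds ratio of 1.53 (0.492 to 7.72, exact test adjusted p = 0.730). Odds ratios up to 2.18 for Ccnd1 and up to 7.72 for Ccnd2 thus lay within counting error.

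The other 4 tested cyclins had no TTP cDNA at 1 h, and only lower bounds of the odds ratio exist. These bounds were 0.726 for Ccnb1, 0.643 for Ccna2, 0.532 for Ccne2 and 0.312 for Ccnb2, with exact test adjusted p values of 0.379, 0.479, 0.560 and 0.730. A split without TTP cDNAs is the most extreme towards TTP-AA that these counts allow. The unadjusted exact test p values still ran from 0.106 (Ccnb1) to 0.625 (Ccnb2). At these counts the test could therefore not call the 4 genes higher in TTP-AA. With the absent counts set at 3, the count ratio of TTP-AA to TTP was 9.33 for Ccnb1 (28 against 0). That setting covers counting error and not cDNAs at sites that failed the filter. For the other 3 genes the ratio was lower. The ratio was 8.33, 7.00 and 4.33 for Ccna2, Ccne2 and Ccnb2. All 4 lay below the 9.78 of all 3′UTR cDNAs, and the ratios of 3′UTR shares were 0.954, 0.852, 0.715 and 0.443. The exact 95% lower limits of the count ratio, which include the counting error of the TTP-AA list, were 7.10, 6.29, 5.21 and 3.05 for Ccnb1, Ccna2, Ccne2 and Ccnb2. With such counts set at 3, the median ratio of shares was 0.879 for the 6 cyclins and 0.647 for the 2102 genes, of which 55.5% had a 0 in a list. With 0.5 added to every count instead, the median log2 odds ratio was 1.80 for the 6 cyclins (5 above 0) and 1.23 for all genes, so the direction of these medians turned with the treatment of zeros. Ccnd3, with 8 cDNAs in sum, was below the minimum. It took 0.00428% of TTP-AA and 0.0418% of TTP 3′UTR cDNAs, an odds ratio of 0.102 (0.0190 to 0.549). When the minimum was lowered to 5 cDNAs, Ccnd3 had an exact test p of 0.00381, which was 0.0755 after adjustment over 3100 genes.

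The reference decided these calls. Against all cDNAs of a list, which include introns, non-coding RNA and intergenic sites, 6 of 6 tested cyclins had a higher share for TTP-AA, with exact test adjusted p values from 1.15e-06 (Ccnd1) to 0.00535 (Ccnb2), but so many genes did so that 85.3% of all genes passed. Of the 1792 genes called in this way, 1783 were higher in TTP-AA. The odds ratio against all cDNAs was 5.05 for Ccnd1 (2.43 to 12.2) and 8.54 for Ccnd2 (2.74 to 43.0). The difference between both references is the share of 3′UTR cDNAs in the list, 53.6% for TTP-AA and 9.63% for TTP at 1 h.

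**Figure D3:**
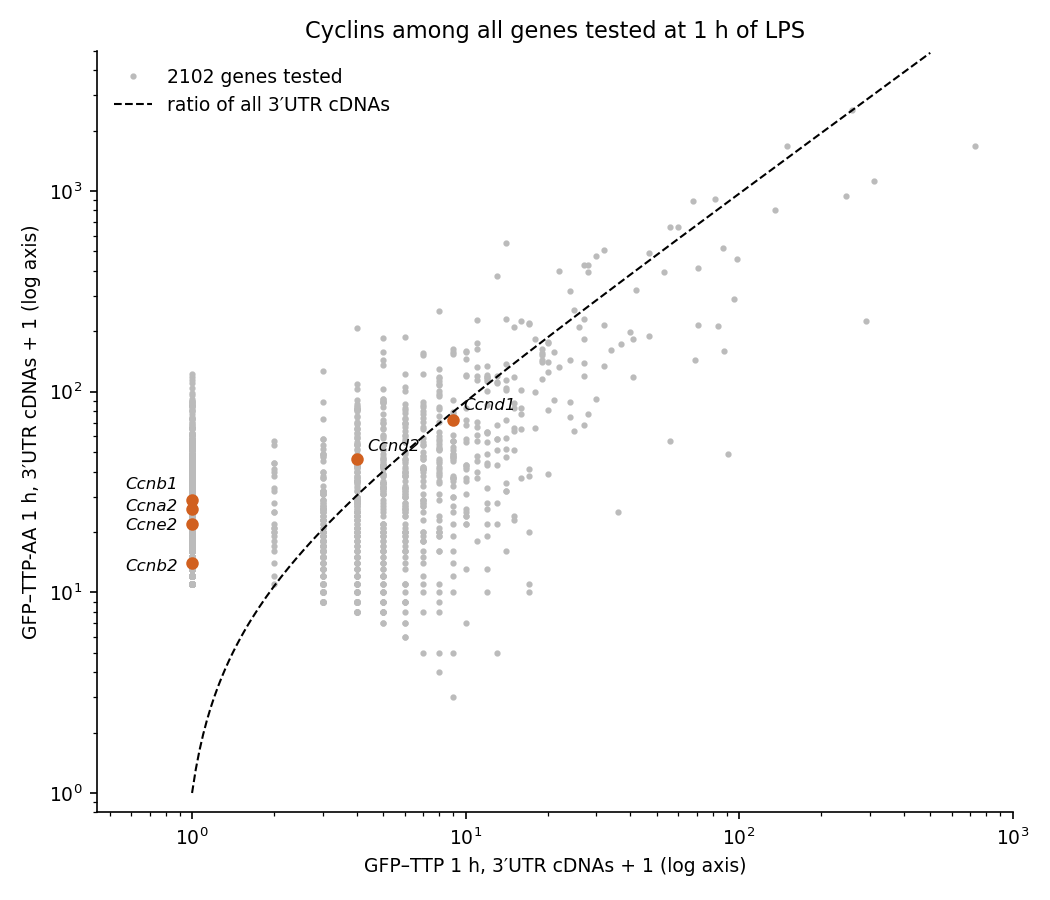
3′UTR cDNAs plus 1 in the GFP–TTP (x axis) and GFP–TTP-AA (y axis) lists at 1 h of LPS, on log axes, for the 2102 genes tested (grey) and the 6 cyclins among them (orange). The dashed line marks the ratio of all 3′UTR cDNAs, 9.78; Ccnd1 and Ccnd2 lie close to it and the other 4 cyclins stand at 0 TTP cDNAs.

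The second comparison followed the cyclins over time. From 0 h to 1 h the summed TTP-AA cDNAs went from 7 to 207, a ratio of 29.6 (exact 95% interval 14.1 to 74.5), beside 15.6 for all 3′UTR cDNAs and 5.35 for all cDNAs. Against 3′UTR cDNAs, 0 of 6 tested cyclins passed the exact test (0 with an unadjusted p below 0.05), where 13.6% of the 2081 genes tested did. Ccnd2, Ccne2, Ccna2 and Ccnb2 had no TTP-AA cDNA at 0 h. This is the most extreme rise that their counts allow, so the test could not call it against this reference. Ccnd1 was nearest to an unchanged share, with 0.0832% at 0 h and 0.0759% at 1 h (odds ratio 0.912, 0.373 to 2.90). Against all cDNAs, 24.2% of genes passed (503 genes, 468 of them higher at 1 h) and 1 of 6 cyclins did. This was Ccnd2, with 0 against 45 cDNAs, an odds ratio of at least 2.19 by its 95% bound and an exact test adjusted p of 0.00602. For TTP the sum went from 7 to 15, a ratio of 2.14 (0.822 to 6.21) beside 2.19 for all 3′UTR cDNAs, and no cyclin reached 10 cDNAs over both TTP lists.

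At 0 h, the sums were 7 cDNAs in each list (ratio 1.00, exact 95% interval 0.299 to 3.34), and no cyclin reached 10 cDNAs. Each list had sites in 2 cyclins, of which Ccnb1 was shared. Ccnd1 had 5 TTP-AA and 0 TTP cDNAs, Ccnd2 had 0 and 4, and Ccnb1 had 2 and 3. These counts are too small to order the proteins. Whether the TTP-AA to TTP odds ratio differed between 1 h and 0 h was tested with Zelen's exact test over genes with at least 10 cDNAs in the 4 lists. Of 2209 genes 1.95% passed, and 0 of 6 cyclins did. Ccnd2 had the lowest value of the 6 (p = 0.0349, exact test adjusted p = 0.398). Ccne2, Ccna2 and Ccnb2 had no cDNA at 0 h, so for them this test could not depart from 1.

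At 4 h no cyclin had a sense-strand cDNA in either list. These lists held 1000 TTP-AA and 906 TTP 3′UTR cDNAs. At the shares measured at 1 h, 2.21 TTP-AA and 1.42 TTP cyclin cDNAs would fall in lists of this size, so a loss of cyclin crosslinks relative to other 3′UTRs was not detectable at this depth. In the comparison of TTP-AA at 4 h with 1 h, 0 of 6 cyclins passed the exact test against 3′UTR cDNAs (0 with an unadjusted p below 0.05), and 3.09% of 2009 genes did. Against all cDNAs 13.8% passed (277 genes, 272 of them lower at 4 h), and 1 of 6 cyclins did. Ccnd1 fell from 71 of 174397 cDNAs to 0 of 19167, with a 95% upper bound of the odds ratio of 0.485 and an exact test adjusted p of 0.0119. Over all genes, the 3′UTR share of TTP-AA cDNAs was 53.6% at 1 h and 5.22% at 4 h. All comparisons with 1 h share the same 1 h list.

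Within the 3′UTRs, TTP-AA crosslinks at 1 h lay in 28 clusters, counting sites up to 15 nt apart as 1 cluster. In Ccnd1, 35 of 71 cDNAs (49.3%) fell between 1226 and 1297 nt after the stop codon, around pentamers at 1255 and 1281 nt. The highest site of all the cyclins was there, with 6 cDNAs at 1254 nt. The 5 TTP-AA cDNAs of Ccnd1 at 0 h lay between 1254 and 1264 nt, within this cluster. In Ccne2, 12 of 21 cDNAs fell between 1015 and 1048 nt, on the overlapping pentamers at 1026, 1030 and 1034 nt. In Ccnb1, 14 of 28 fell between 385 and 418 nt, upstream of the nonamer, and 7 fell between 876 and 887 nt, beside the pentamer at 890 nt. At 0 h, the TTP-AA sites of Ccnb1 lay at 413 and 893 nt and its TTP sites at 891 and 905 nt, close to the same pentamers.

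Other clusters had no pentamer nearby. In Ccnd2, 19 of 45 cDNAs fell between 1688 and 1723 nt, in and around the repeat of AUU printed above, and 14 fell between 4628 and 4690 nt. The 4 TTP cDNAs of Ccnd2 at 0 h lay between 4796 and 4799 nt, in a run of U. Ccna2 had 5 clusters of 3 to 7 cDNAs between 59 and 1330 nt, 1 of them at its pentamer at 532 nt. Ccnb2 has no pentamer in its 3′UTR, and its 13 cDNAs fell between 32 and 44 nt and between 134 and 168 nt. The 4 TTP-AA cDNAs of Ccnd3 lay between 618 and 628 nt, downstream of its pentamer at 570 nt. Of the 162 TTP-AA sites in cyclins at 1 h, 129 rested on 1 cDNA (79.6%), a share of 77.2% over all 3′UTR sites of that list.

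**Figure D4:**
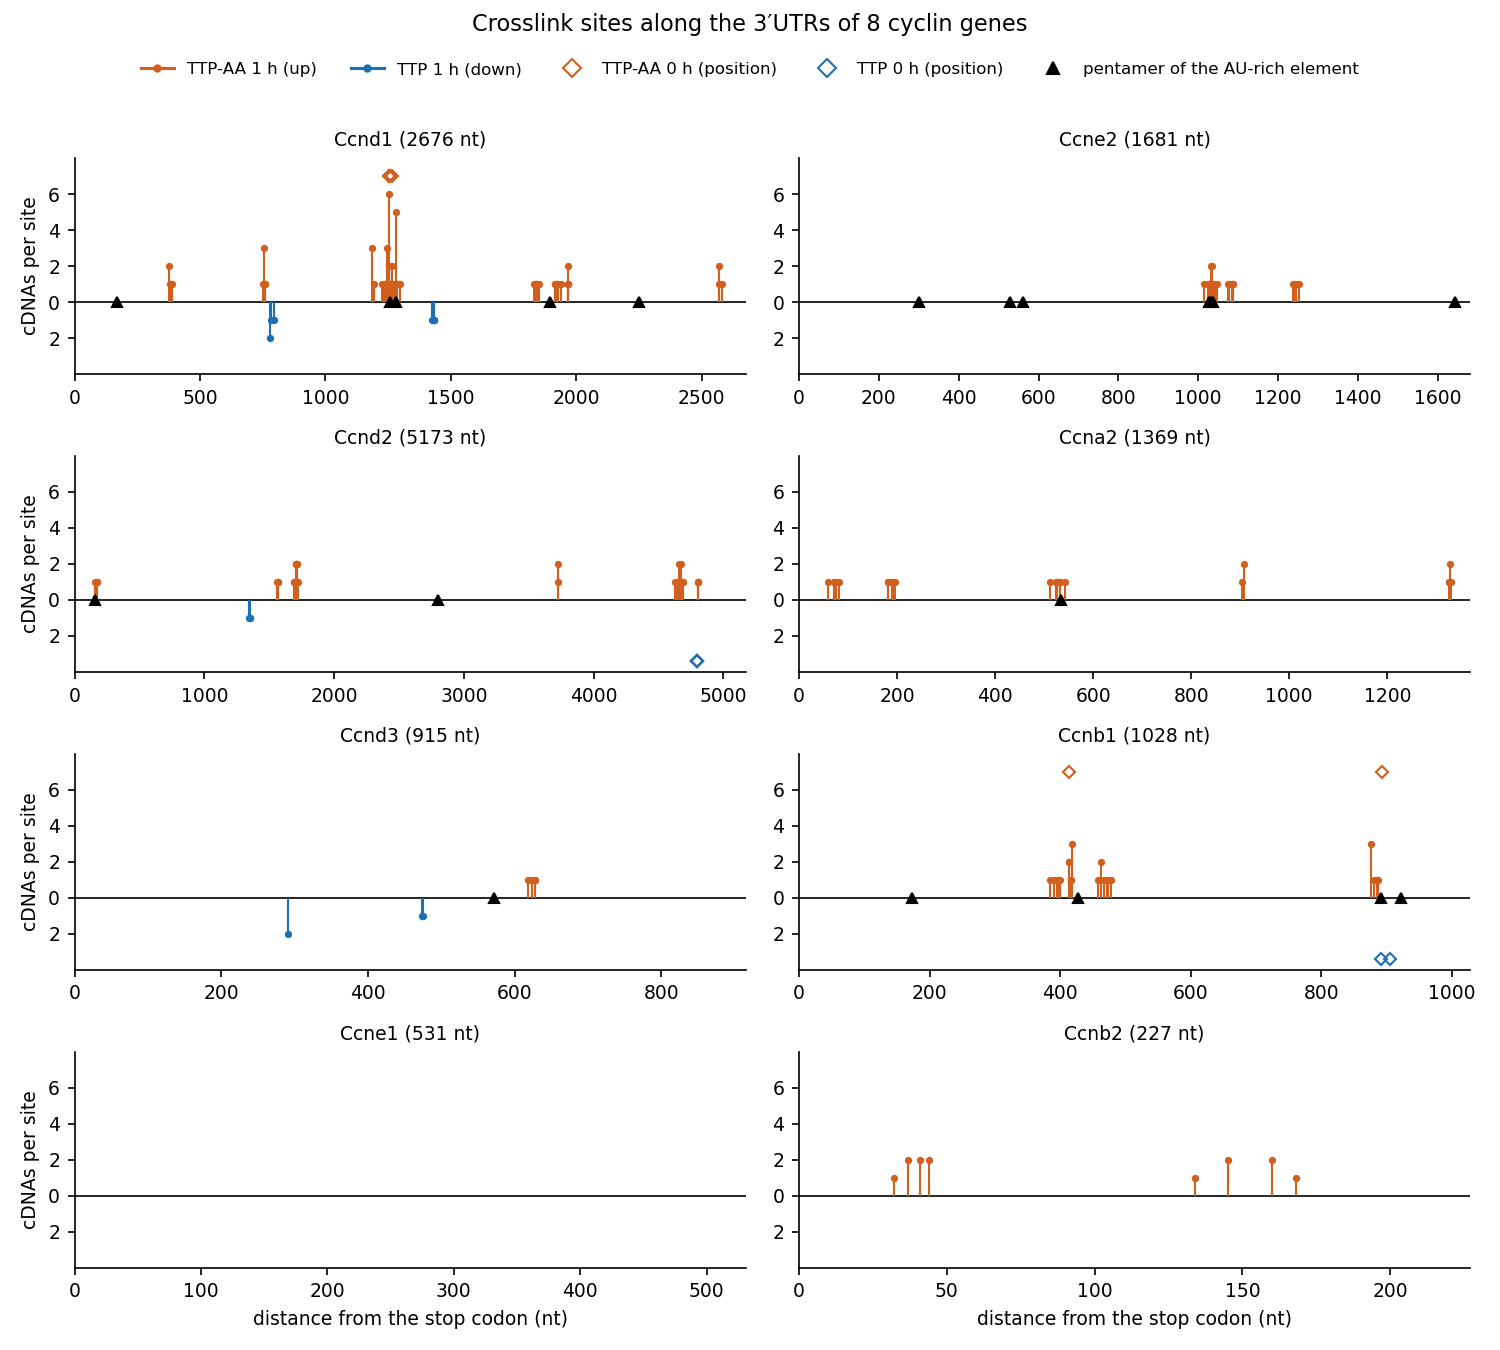
Crosslink sites along each cyclin 3′UTR, with the distance from the stop codon in nt on the x axis and cDNAs per site on the y axis: TTP-AA 1 h upwards (orange) and TTP 1 h downwards (blue). Open diamonds mark the positions of 0 h sites and black triangles those of AUUUA; in Ccnd1 the tallest TTP-AA sites and the 0 h sites share 1 place near 2 pentamers, while TTP sites stand apart.

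The 8 3′UTRs hold 20 copies of AUUUA, in 6 genes, and Ccne1 and Ccnb2 have none. Over the transcriptome 65.2% of 21045 3′UTRs contain AUUUA, 27.6% contain UAUUUAU and 7.65% contain UUAUUUAUU, where the longer motifs include the shorter, the mRNA strand alone was searched and the longest 3′UTR of each gene was used. Ccne2 and Ccnb1 are the 2 cyclins with the nonamer. At 1 h, 9 of the 20 pentamers, in 5 genes, had a TTP-AA site with the whole motif within 20 nt. Of the 207 TTP-AA cDNAs, 69 lay within this distance, 33.3% (Wilson 95% interval 27.3% to 40.0%). If the cDNAs of each gene had been spread evenly over its 3′UTR, 5.94% would lie so close. Over all genes of the list the share was 40.7%.

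By gene, the share near a pentamer was 57.1% in Ccne2 (36.5% to 75.5%), where 11.2% of 3′UTR positions are so near. It was 57.1% in Ccnb1 (39.1% to 73.5%; 13.7% of positions), 45.1% in Ccnd1 (34.0% to 56.6%; 6.50% of positions) and 24.0% in Ccna2 (11.5% to 43.4%; 2.70% of positions). All 4 intervals lay above the share of positions. They treat cDNAs as independent, though cDNAs near a pentamer lay in few clusters. Of the 28 TTP-AA clusters at 1 h, 6 had a pentamer within 20 nt. Even spread also leaves out the filter that sites had to pass. In Ccnd2 the share was 6.67% (2.29% to 17.9%), with 1.43% of positions near the motif. That interval also lay above the share of positions, but the share rested on 3 cDNAs. Ccnd3 had 0 of 4 cDNAs near its pentamer, which leaves the share between 0% and 49.0%. For TTP at 1 h, 0 of 15 cyclin cDNAs lay near a pentamer (0% to 20.4%), where even spread would give 4.83% and all genes of the list had 43.4%. At 0 h the small counts were 7 of 7 for TTP-AA and 3 of 7 for TTP.

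**Figure D5:**
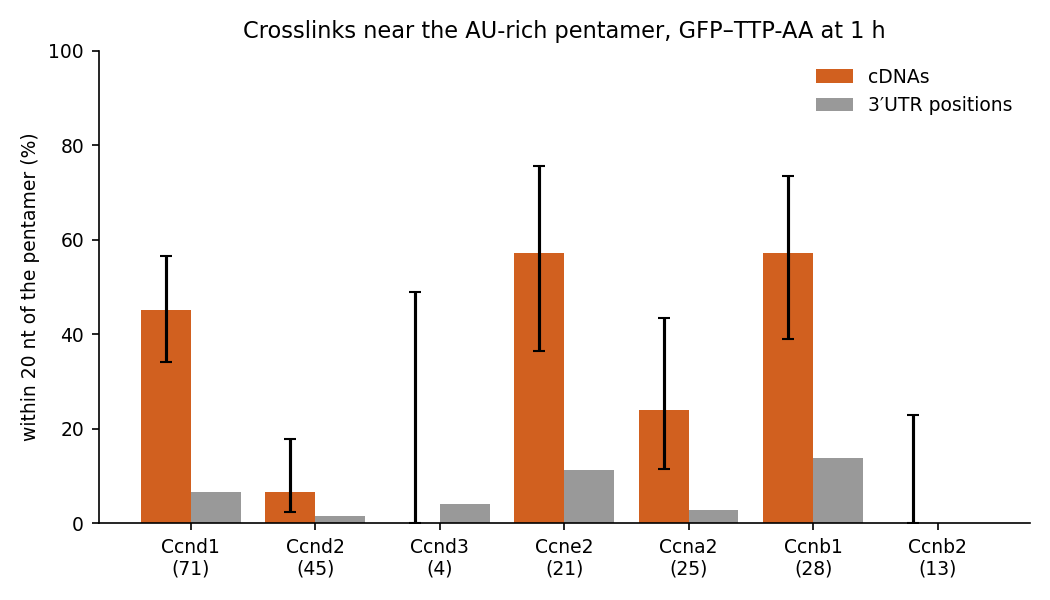
Share of TTP-AA cDNAs at 1 h with a complete AUUUA within 20 nt (orange, with Wilson 95% intervals) and share of 3′UTR positions within that distance (grey), in percent on the y axis, for the 7 cyclins with cDNAs, whose cDNA count stands in brackets. Ccne2 and Ccnb1 reach 57.1%, and Ccnb2, which has no pentamer, and Ccnd3 are at 0.

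The crosslinked base was U for 119 of the 207 TTP-AA cDNAs (57.5%), compared with 31.4% for even spread over the same 3′UTRs and 62.1% for all genes of the list. For TTP at 1 h it was U for 8 of 15 cDNAs. Uridine is the base that UV light crosslinks most readily. The final 100 nt of the 3′UTRs, where the polyadenylation signal lies, held 5.80% of the cyclins' TTP-AA cDNAs (12 of 207). Even spread would give 7.48%, and all genes of the list had 19.2%.

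Positions of TTP and TTP-AA sites in the cyclins were compared at 1 h. Of the 13 TTP sites, 0 had a TTP-AA site within 15 nt (0%, Wilson 95% interval 0% to 22.8%), where 10.4% of positions in these 3′UTRs are so near. Within 30 nt it was 2 of 13 (15.4%), where 15.6% of positions are so near. The 13 sites form 5 clusters in 3 genes and are not independent. Over all genes, 76.6% of the 6775 TTP 3′UTR sites had a TTP-AA site within 15 nt. Among genes with at least 1 TTP-AA cDNA and no more cDNAs in either list than Ccnd1, a group defined after the positions had been seen, the share was 66.8% of 2734 sites. In 126 of 559 genes with 3 to 8 TTP and 1 to 71 TTP-AA cDNAs (22.5%), no TTP site had a TTP-AA site so near, as was the case in 3 of 3 cyclins. The nearest TTP-AA site was 20 nt away from a TTP site in Ccnd1, 207 nt in Ccnd2 and 143 nt in Ccnd3. The 0 h sites lay closer to the TTP-AA 1 h sites. The 4 TTP sites of Ccnd2 at 0 h were 2 to 5 nt from one, the 2 of Ccnb1 were 4 and 18 nt away, and the 6 TTP-AA sites at 0 h were 0 to 6 nt away.

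The partners and regulators of the cyclins were described from lists of genes, whose calls at 1 h stand beside 6.23% of all genes against 3′UTR cDNAs and 85.3% against all cDNAs. Their counts of genes with a site stand beside 4510 genes for TTP-AA and 1306 for TTP, of 21045 with a 3′UTR. Of 18 other cyclins, 8 had a TTP-AA and 3 a TTP 3′UTR site at 1 h, and 0 of 5 tested passed against 3′UTR cDNAs and 5 of 5 against all cDNAs. Ccng1, encoding cyclin G1, a p53 target, had most, with 140 TTP-AA and 19 TTP cDNAs (odds ratio 0.753, 0.464 to 1.29), and Ccnl1, which acts in splicing, had 55 and 0. Of 5 cell-cycle kinases, 5 had a TTP-AA and 0 a TTP site, and 1 of 4 tested passed against 3′UTR cDNAs and 4 of 4 against all cDNAs. The first was Cdk1, the partner of the B-type cyclins, with 66 against 0 cDNAs, a lower bound of the odds ratio of 1.78 and an exact test adjusted p of 0.0422. Cdk2, the partner of the E-type cyclins, had 40 against 0 (lower bound 1.06, exact test adjusted p = 0.260).

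Cdk4, the partner of the D-type cyclins, had a lower share of TTP-AA 3′UTR cDNAs at 1 h than at 0 h, with 26 and 19 cDNAs (odds ratio 0.0877, 0.0467 to 0.168, exact test adjusted p = 2.99e-10). It was the 1 of 4 tested kinases that passed in this comparison, in which 13.6% of all genes did, 221 of those 284 genes with a lower share at 1 h. Of 7 kinase inhibitors, Cdkn1a and Cdkn2c had TTP-AA sites. Cdkn1a, encoding p21, had 488 TTP-AA and 46 TTP cDNAs (odds ratio 1.08, 0.800 to 1.50) and passed only against all cDNAs, and Cdkn2c had 7 and 0. Among 11 retinoblastoma and E2F genes, 9 had TTP-AA and 4 had TTP sites and 0 of 7 passed (6 of 7 against all cDNAs), with most cDNAs in Rbl1 (23 and 3) and E2f8 (19 and 3). Among 12 mitotic regulators, 9 had TTP-AA and 3 had TTP sites and 0 of 8 passed (6 of 8 against all cDNAs), with most in Cdc25a (24 and 0) and Plk1 (17 and 0).

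The pattern of Ccnd1 over the 6 lists was compared with that of 2102 genes on the log2 scale of cDNAs per 1000000 cDNAs of the list, plus 10. The nearest were Cbfb, Rbms1 and Rab1a, at distances of 0.42, 0.43 and 0.48. At 1 h, Cbfb had 8 cDNAs for TTP and 56 for TTP-AA, Rbms1 had 10 and 66, and Rab1a had 6 and 66. All 3 had 0 TTP cDNAs at 0 h and 0 cDNAs at 4 h.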

How the data were processed

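Crosslink sites came from 15 iCLIP libraries in 6 groups defined by the sample titles. The authors removed PCR duplicates with random barcode bases, mapped reads with Bowtie to mm10 (GRCm38) using the Ensembl 75 annotation, summed the libraries of each group and kept sites past a false-discovery rate of 0.05 in iCount. The deposited score of each site is a signed whole number, its unique cDNAs with the strand as sign, and was not normalised. The headers of the 1 h lists carry a mark for treating regions as a unit that the other headers lack, so time comparisons cross that difference. Libraries cannot be separated, so no library could be left out.

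Sites were assigned with Python 3.11.15, pandas 2.3.3, numpy 2.4.6 and scipy 1.17.1 to GENCODE M21, in the order 3′UTR, CDS, 5′UTR, other exon, intron. Genes needed 10 cDNAs over the lists compared. A count of 0 was taken to allow 3 cDNAs, so the limit ranged from 0.00172% to 0.0157% of a list. It covers counting error and not cDNAs at sites that the filter removed. Scripts were tested on simulated data. The 8 cyclins and the gene lists were chosen with earlier results of these data known. Named genes are the 8 cyclins, the listed regulators past the threshold or with most 1 h cDNAs (2 per list), and the 3 genes nearest to Ccnd1. Alternatives covered the reference, minimum, 3′UTR model, sites for cDNAs, motif window and overlap distance.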

Additional observations from a re-analysis of the deposited data

Results flagged for a closer look

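In the TTP-AA 1 h list, 4 cDNAs lay on the strand opposite to Ccna2, within the gene's span and outside the sense-strand measurement. This was above the 3 cDNAs that a count of 0 was taken to allow. All 4 fell in the annotated 3′UTR of the neighbouring gene Exosc9, which overlaps Ccna2 on the other strand, and they entered no cyclin count.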

How the results depend on the processing

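Of 72 alternative values, 59 kept their direction and their side of the threshold, or stayed within 1.5 times the count or within the interval of the reported value. The tally includes 4 comparisons without a tested cyclin at the reported setting, where calls could hardly change. It is therefore not a measure of stability. Against all cDNAs of a list in place of 3′UTR cDNAs, the cyclins called went from 0 to 6 for TTP-AA versus TTP at 1 h, and from 0 to 1 for TTP-AA 1 h versus 0 h and for TTP-AA 4 h versus 1 h. With this reference the log2 odds ratio of Ccnd1 at 1 h turned from -0.22 to 2.26, and the other 5 tested cyclins passed the threshold. The 3′UTR share of the lists sets this difference by construction. Requiring 5 cDNAs left 1 cyclin (Ccnd1) with TTP sites at 1 h in place of 3. The share of TTP-AA cyclin cDNAs near AUUUA was 19.8% within 10 nt, 45.4% within 50 nt and 27.2% without Ccnd1, the last an alternative chosen after seeing the data, as was counting TTP sites by cluster. The count of genes called at 1 h was 131 with 3′UTR cDNAs and 1792 with all cDNAs as reference. Counting sites, lowering the minimum to 5 cDNAs and using the transcript with the longest coding sequence moved no cyclin across the threshold in the 3 comparisons with tested cyclins (TTP-AA versus TTP at 1 h, TTP-AA 1 h versus 0 h and 4 h versus 1 h). In the other 4, at most 2 cyclins reached the lower minimum and none was called, so they say nothing of stability. The 3 with tested cyclins say little of it. None of the 6 tested had a cDNA at 4 h. In each of the other 2, 4 of 6 had a 0 that the test could not call against 3′UTR cDNAs. No paired analysis was possible because the deposited lists are sums over libraries, and replicate numbers are lost. Depth limits the cyclins at 0 h and 4 h, where no gene of the 8 reached 10 cDNAs over the TTP and TTP-AA lists.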
